A study of Mus musculus with 12 samples.

Results

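The genes of MHC class I peptide presentation were followed in 12 RNA-seq libraries of RAW264.7, a mouse macrophage line. The set was defined by gene symbol: H2-K1, H2-D1, H2-T23, B2m, Tap1, Tap2, Tapbp, Tapbpl, Erap1 and Nlrc5. It was chosen with earlier results of these data known. All 10 were found among the 12483 genes of the deposited count table, and all 10 were among the 12231 genes tested. The study asked which genes depend on NRE1, a genomic element or gene that the labels do not expand and that matches no gene symbol of the table, so its deletion was not checked in the counts. The wild-type (WT) groups held clones 1, 2 and 3, and the groups with the CRISPR deletion of NRE1 (KO) held clones 1A, 1B and 2. Each clone gave 1 library in medium and 1 library after 6 h of LPS (10 ng/mL) with IFN-gamma (50 ng/mL), so there were 4 groups of 3 libraries. According to the protocols, cells were transfected with a pair of CRISPR constructs placed on either side of NRE1, kept if they expressed GFP and puromycin resistance, and grown up from single cells before the deletion was assayed. The labels do not say whether the WT clones went through the same steps, whether all copies of NRE1 were lost, or whether KO 1A and 1B are independent clones. If they are not, the KO groups hold 2 independent clones. P-values measure the spread between these clones of 1 cell line.

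Class I molecules carry short peptides from the cytosol to the cell surface, where CD8 T cells and natural killer cells read them. A heavy chain pairs with beta-2-microglobulin in the endoplasmic reticulum, the transporter TAP brings in peptides, tapasin and a tapasin-related protein help to choose them, and an aminopeptidase trims them to length. In macrophages, IFN-gamma acts through IRF1 and the transactivator NLRC5, among others, to raise genes of this set, and LPS adds NF-kB and type I interferon.

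All 10 genes rose in WT clones and all 10 rose in KO clones, against 23.8% and 26.7% of all genes tested that rose in these comparisons (edgeR quasi-likelihood test, Benjamini-Hochberg adjusted p below 0.05). In each genotype, every stimulated library lay above every medium library for all 10 genes. Groups parted in that way, with the stimulated one higher, for 25.2% of all genes in WT and 34.1% in KO clones. The median log2 fold change of the 10 was 2.53 in WT and 2.86 in KO clones, beside -0.01 over all genes in each. No gene of the set was called between KO and WT clones in medium, where 1.21% of all genes were called, or under LPS/IFN-gamma, where 4.64% were. Together the 10 genes took 0.123% to 0.200% of a library's counts in medium and 0.450% to 0.587% after stimulation.

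**Figure D1:**
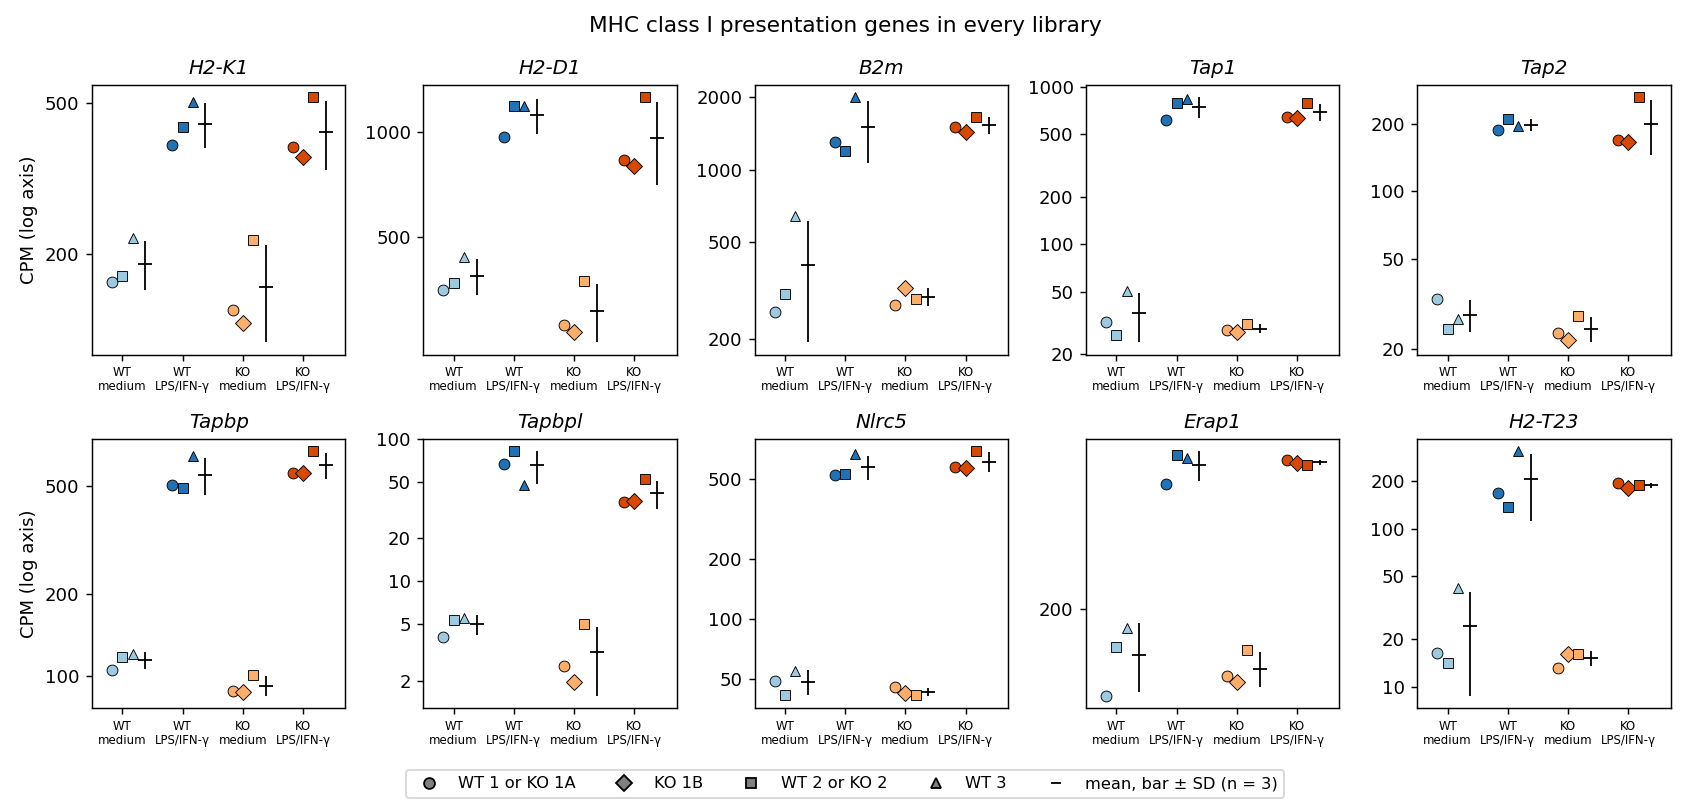
Normalised CPM (log axis) of the 10 genes in each of the 12 libraries, by group; the marker shape gives the clone. Within each genotype the stimulated libraries lie above the medium libraries for every gene, and the medium library of WT clone 3 stands above the other medium libraries for B2m and H2-T23.

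Levels below are CPM, in which counts were divided by TMM-adjusted library totals, and suit comparisons of 1 gene between libraries. Total counts ran from 10624591 to 14388590 per library and the mitochondrial share of counts from 1.24% to 2.53%. All 9 macrophage markers checked were listed. Their summed level was 8134 to 18660 CPM in WT medium and 8943 to 18410 in WT stimulated libraries. It was 4377 to 13670 in KO medium and 5383 to 11340 in KO stimulated libraries. Lyz2 was a large part of these sums, with a mean of 10040 CPM in WT medium. In KO medium Lyz2 stood at 2106, 1790 and 10560 CPM in clones 1A, 1B and 2. Mertk was near absent in medium, with 9 counts over the WT and 2 over the KO group. Of the 9 markers, 4 rose and Csf1r fell (-1.85) in the WT response. In the KO response 6 rose, and Csf1r (-2.40) and Cd68 fell. Itgam was the only marker called between genotypes, lower in KO clones in medium (-1.75 ± 0.26, adjusted p = 0.00983). Adgre1 was not called, at -2.82 in medium (adjusted p = 0.0515) and -2.30 under stimulation (0.0508). Its KO libraries all lay below its WT libraries in both conditions, as did those of Fcgr1 and Spi1. KO libraries lay so for 11.4% of all genes in medium and 12.7% under stimulation. Cd14 in both conditions, and Mertk under stimulation, had positive values and were not called. Of the other lists, 1 of 6 B cell markers (Blnk), 1 of 6 T or NK cell markers (Lck), 1 of 5 neutrophil markers (S100a8) and 0 of 5 fibroblast and 0 of 4 epithelial markers were listed. Dendritic cell markers were listed for 5 of 6 genes, all but Flt3, and summed to 2.10 to 43.2 CPM in WT medium, 16.2 to 86.6 in WT stimulated, 2.25 to 3.52 in KO medium and 13.1 to 14.5 in KO stimulated libraries. The top of both WT ranges was clone 2. Lck was called higher in both responses and went from a mean of 3.05 to 15.8 CPM in WT and from 4.10 to 20.3 CPM in KO clones. The dendritic cell markers Xcr1 (0.0966 to 18.5 CPM in WT and 0.0274 to 8.21 CPM in KO clones) and Clec9a (0.193 to 4.44 and 0.102 to 2.13 CPM) were also called higher in both. The part of these marker differences in the class I values was not tested. In medium, the library of WT clone 3 stood apart from all others at B2m, H2-T23 and Tap1, and values without it are given beside results that it moves.

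The classical heavy chain genes H2-K1 and H2-D1 encode the chains that hold the peptide, and both lie in the H-2 complex on chromosome 17 (mm10; H2-K1 at chr17:33996017-34000347, minus strand, and H2-D1 at chr17:35262730-35267499, plus strand). In medium, H2-K1 stood at 169, 176 and 220 CPM in WT clones 1, 2 and 3 and at 143, 131 and 218 CPM in KO clones 1A, 1B and 2. After stimulation it reached 387, 432 and 504 CPM in the WT and 382, 360 and 519 CPM in the KO clones. Stimulated and medium libraries did not overlap in either genotype, while the ranges of WT and KO overlapped in both conditions. The log2 fold change was 1.23 ± 0.21 (SE, adjusted p = 0.000838) in WT and 1.36 ± 0.21 (adjusted p = 0.000352) in KO clones, the smallest of the 10 in each genotype. H2-D1 stood at 355, 369 and 440 CPM in WT and 282, 269 and 376 CPM in KO clones in medium. Under LPS/IFN-gamma it was counted at 968, 1189 and 1184 CPM in WT and at 830, 797 and 1256 CPM in KO clones. KO clone 2 was the highest KO clone in both conditions for both genes, and its stimulated value was also above every WT library. The rise of H2-D1 was 1.52 ± 0.20 in WT (adjusted p = 0.000134) and 1.64 ± 0.20 in KO clones (adjusted p = 6.15e-05).

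RAW264.7 comes from a BALB/c tumour of the H-2d haplotype, whereas the mm10 reference is C57BL/6 with H-2b alleles and lacks the BALB/c heavy chain gene H2-L. Heavy chain genes are also near copies of one another, so their counts depend on how reads were shared between them, which was not tested. The values of H2-K1, H2-D1, H2-T23 and the other heavy chains are therefore uncertain as levels. Each library was counted against the same reference, but reads counted at a near copy would carry the rise of their own gene to it. The rises are therefore also uncertain as responses of single genes.

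The stretch before the transcription start is shown for the heavy chains, B2m and Tap1, which include the smallest and the largest rise, because NF-kB and interferon factors are known to bind there. RefSeq (GRCm38.p6) start sites were at hand for 7 of the 10 genes, not for Tap2, Tapbpl and Nlrc5. They differ from the GENCODE gene spans given here. The H2-D1 window and part of the H2-T23 window lie inside those spans, as do the windows of Tapbp and Erap1, not printed. The 250 bases upstream were searched on both strands for the NF-kB core GGGATTCCC and the core of an interferon-stimulated response element GAAANNGAA. Each sequence is written 5′ to 3′ along the gene's strand, with these matches in capitals.
H2-K1 (chr17:34000348-34000597, minus strand): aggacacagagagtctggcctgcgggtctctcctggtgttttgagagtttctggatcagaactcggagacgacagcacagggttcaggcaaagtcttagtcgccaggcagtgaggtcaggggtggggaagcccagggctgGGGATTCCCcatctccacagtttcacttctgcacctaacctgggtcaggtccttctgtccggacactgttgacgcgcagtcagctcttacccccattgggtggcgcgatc
H2-D1 (chr17:35262844-35263093, plus strand): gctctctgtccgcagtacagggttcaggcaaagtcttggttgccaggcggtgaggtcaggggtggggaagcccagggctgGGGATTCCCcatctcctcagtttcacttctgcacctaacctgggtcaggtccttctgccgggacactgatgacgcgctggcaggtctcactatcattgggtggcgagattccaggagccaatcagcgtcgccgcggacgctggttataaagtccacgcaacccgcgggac
H2-T23 (chr17:36032702-36032951, minus strand): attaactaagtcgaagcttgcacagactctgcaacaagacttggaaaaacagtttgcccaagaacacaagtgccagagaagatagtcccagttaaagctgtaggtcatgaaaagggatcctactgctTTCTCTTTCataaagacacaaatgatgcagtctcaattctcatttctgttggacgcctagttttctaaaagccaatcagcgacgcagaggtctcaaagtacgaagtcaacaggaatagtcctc
B2m (chr2:122147437-122147686, plus strand): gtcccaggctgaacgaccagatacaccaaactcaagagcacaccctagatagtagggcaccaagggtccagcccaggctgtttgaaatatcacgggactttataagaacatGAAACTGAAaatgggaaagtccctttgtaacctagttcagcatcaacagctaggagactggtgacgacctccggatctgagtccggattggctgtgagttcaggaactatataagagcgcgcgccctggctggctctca
Tap1 (chr17:34187306-34187555, plus strand): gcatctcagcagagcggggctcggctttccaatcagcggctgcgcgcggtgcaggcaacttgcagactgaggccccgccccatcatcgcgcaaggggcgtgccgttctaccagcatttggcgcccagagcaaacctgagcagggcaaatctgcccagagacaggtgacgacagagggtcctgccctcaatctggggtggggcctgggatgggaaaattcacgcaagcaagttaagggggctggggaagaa

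GGGATTCCC stood in the windows of H2-K1 and H2-D1, 110 to 102 and 170 to 162 bases before the start. From a second RefSeq start of H2-K1, not printed, it stood 124 to 116 bases before the start. It was present in 99 of the 32851 promoters in the RefSeq table (0.301%), and H2-Q6 and H2-Q7, other heavy chain genes, were among them. GAAANNGAA stood in B2m (139 to 131 bases before the start) and, on the opposite strand, in H2-T23 (123 to 115 bases) and Erap1 (the 9 bases before the start), and in 7.13% of all promoters. Neither motif was found in the windows of Tap1 and Tapbp. No matches overlapped. Of shorter motifs, CCAAT (33.8% of promoters) occurred in every window but that of Erap1. TGACG, part of the cyclic AMP response element (17.8% of promoters), occurred in H2-K1, H2-D1, B2m and Tap1. These are matches of letters in a C57BL/6 reference and not measured sites. A site that departs from the searched letters would be missed, so a window without a match may still hold one.

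H2-T23 encodes Qa-1, a non-classical heavy chain that shows signal peptides of other class I molecules to the receptor CD94/NKG2A on natural killer cells (chr17:36029773-36032855, minus strand). Its medium levels were 16.5, 14.3 and 42.3 CPM in WT clones 1, 2 and 3 and 13.3, 16.2 and 16.1 CPM in KO clones 1A, 1B and 2. Stimulated levels were 168, 138 and 311 CPM in WT and 195, 182 and 190 CPM in KO clones. WT clone 3 was the highest library of its condition both times, and the other 5 clones lay close together in medium. H2-T23 rose by 3.07 ± 0.42 in WT (adjusted p = 0.000243) and by 3.63 ± 0.44 in KO clones (adjusted p = 7.49e-05) on the log2 scale, and by 3.31 in WT clones without clone 3. Between the genotypes its value was -0.69 in medium, with a 95% interval of -1.59 to 0.22, and -0.02 without WT clone 3. Under stimulation it was -0.12 (interval -0.98 to 0.74), and 0.31 without WT clone 3 (adjusted p = 0.161).

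B2m, the invariant light chain shared by all these heavy chains, lies outside the H-2 complex at chr2:122147686-122153083 (plus strand). In medium it stood at 259, 306 and 643 CPM in WT clones 1, 2 and 3 and at 276, 326 and 294 CPM in KO clones 1A, 1B and 2. After LPS/IFN-gamma it reached 1300, 1191 and 1989 CPM in WT and 1495, 1426 and 1653 CPM in KO clones. WT clone 3 again held the highest library of each condition, while the other medium libraries of both genotypes intermingled. The rise was 1.89 ± 0.32 in WT (adjusted p = 0.000672), or 2.14 without clone 3, and 2.35 ± 0.32 in KO clones (adjusted p = 0.000139). Leaving out WT clone 3 turned the value between genotypes in medium from -0.43 to 0.08, and neither was called.

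Tap1 and Tap2 encode the paired chains of the peptide transporter. They lie close together in the class II part of the H-2 complex, with Psmb8 between them (chr17:34187553-34197225 and chr17:34203527-34216321, both plus strand). Tap1 stood at 32.0, 26.7 and 50.8 CPM in WT and at 28.6, 27.7 and 31.3 CPM in KO clones in medium. Stimulated libraries held 621, 790 and 836 CPM in WT and 646, 637 and 789 CPM in KO clones. No other gene of the set rose as far, 20.5-fold in WT (4.36 ± 0.24) and 23.6-fold in KO clones (4.56 ± 0.24, adjusted p = 3.07e-07), and 2.12% of all genes had a higher value in WT clones. Without WT clone 3 the WT value was 4.59. Tap2 went from 33.3, 24.4 and 26.9 CPM to 186, 210 and 196 CPM in WT clones. In KO clones it went from 23.4, 21.9 and 27.9 CPM to 169, 166 and 262 CPM. The rise of Tap2 was 2.81 ± 0.19 in WT (adjusted p = 1.91e-06) and 3.03 ± 0.20 in KO clones (9.48e-07), smaller than that of Tap1 in each of the 6 clones. Of the Tap2 exon length, 18.5% is shared with genes on the opposite strand, and whether counting used strand is not given in the sources used here. For Tap1 the shared part is 3.87%, with Psmb9.

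Because both chains are needed for 1 transporter, their levels were set side by side per kilobase of exon (RPKM). The Tap1 level was 0.663, 0.755 and 1.30 times that of Tap2 in WT clones 1, 2 and 3 in medium and 2.30, 2.59 and 2.95 times after stimulation. In KO clones 1A, 1B and 2 the ratio went from 0.845, 0.874 and 0.776 to 2.63, 2.65 and 2.08. It rose in all 6 clones, and Tap1 was the lower of the pair in 5 of 6 medium libraries and the higher in every stimulated one. B2m stood at 1.55, 1.75 and 3.04 times the summed H2-K1 and H2-D1 level in WT medium libraries and at 2.98, 2.28 and 3.67 times after stimulation. In KO clones that ratio went from 2.04, 2.54 and 1.55 to 3.85, 3.84 and 2.90. Thus, as counted, the light chain rose more than the classical heavy chains in every clone. The uncertainty given above for the heavy chain counts applies to this ratio. The stimulated ratios of WT clone 1, WT clone 2 and KO clone 2 were nevertheless below the medium ratio of WT clone 3. H2-D1 over H2-K1 went from between 1.96 and 2.39 in medium to between 2.48 and 3.14 after stimulation over the 6 clones.

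**Figure D2:**
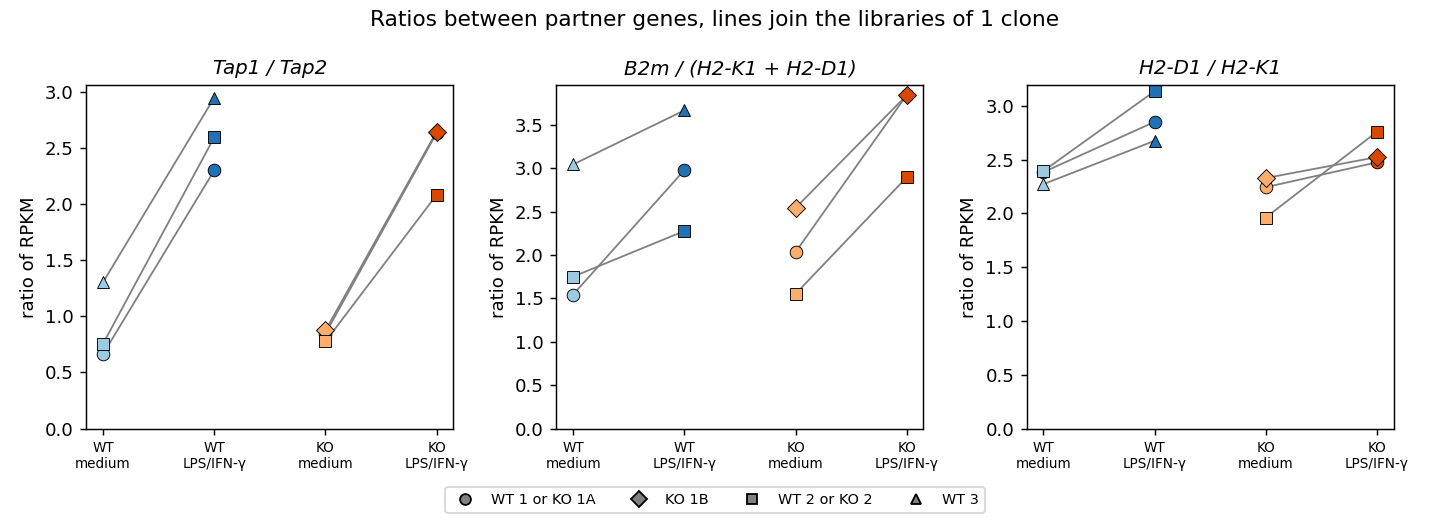
Ratios of length-scaled levels (RPKM) in medium and after LPS/IFN-gamma, 1 line per clone. Tap1 over Tap2 rose in all 6 clones to between 2.08 and 2.95, and B2m over H2-K1 plus H2-D1 rose in all 6 from a starting value that was highest, at 3.04, in WT clone 3.

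Tapbp encodes tapasin, which bridges TAP and the heavy chain (chr17:33915899-33929292, plus strand). In medium it stood at 105, 118 and 121 CPM in WT clones and at 88.5, 87.3 and 101 CPM in KO clones. Under LPS/IFN-gamma it stood at 504, 493 and 643 CPM in WT and at 560, 558 and 673 CPM in KO clones. In medium every KO library lay below every WT library, the only gene of the set for which this held, and it held for 11.4% of all genes. That difference was -0.31 on the log2 scale (interval -0.60 to -0.03, unadjusted p = 0.0356, adjusted p = 0.307) and was not called by edgeR. The rise of Tapbp was 2.25 ± 0.14 in WT (adjusted p = 7.76e-07) and 2.69 ± 0.14 in KO clones (2.43e-07). Of its exon length, 29.0% is shared with Zbtb22 on the same strand and Gm19412 on the opposite strand.

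Tapbpl encodes TAPBPR, a tapasin relative that edits peptides outside the TAP complex (chr6:125223933-125231860, minus strand), and was per kilobase of exon the lowest of the 10 genes in every group. It stood at 4.06, 5.33 and 5.54 CPM in WT clones 1, 2 and 3 and at 2.55, 1.96 and 5.02 CPM in KO clones 1A, 1B and 2 in medium. After stimulation it reached 66.2, 82.1 and 47.5 CPM in WT and 35.9, 36.4 and 52.3 CPM in KO clones. KO 1A and 1B were the lowest in both conditions, whereas KO 2 lay within the WT range. Tapbpl rose by 3.71 ± 0.33 in WT (adjusted p = 1.34e-05) and by 3.72 ± 0.34 in KO clones (adjusted p = 1.15e-05). Between the genotypes it was not called, at -0.66 in medium (interval -1.42 to 0.09, adjusted p = 0.43) and -0.65 under stimulation (interval -1.30 to -0.003, adjusted p = 0.234).

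Erap1 encodes the aminopeptidase that trims peptides in the endoplasmic reticulum (chr13:74639568-74693201, plus strand). In WT clones it went from 134, 168 and 184 CPM to 360, 410 and 404 CPM. In KO clones it went from 147, 143 and 166 CPM to 402, 396 and 392 CPM. The genotypes overlapped in both conditions. Its rise was among the smallest of the set, 1.27 ± 0.12 in WT (adjusted p = 1.91e-05) and 1.39 ± 0.12 in KO clones (adjusted p = 8.17e-06). Cast, on the opposite strand, shares 834 bp, and 11.5% of the exon length of Erap1 is shared in all.

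Nlrc5, the transactivator that assembles on class I promoters, lies at chr8:94434356-94527272 (plus strand). It stood at 49.3, 41.7 and 55.4 CPM in WT and at 45.7, 42.5 and 41.8 CPM in KO clones in medium. Stimulated levels were 525, 531 and 668 CPM in WT and 578, 569 and 695 CPM in KO clones. No stimulated library overlapped the medium range, and WT and KO overlapped in both conditions. Nlrc5 rose by 3.41, 3.67 and 3.59 on the log2 scale in WT clones 1, 2 and 3 and by 3.66, 3.74 and 4.06 in KO clones 1A, 1B and 2. Its adjusted p-values, 7.22e-08 in WT and 5.22e-08 in KO clones, were the smallest of the set.

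**Figure D3:**
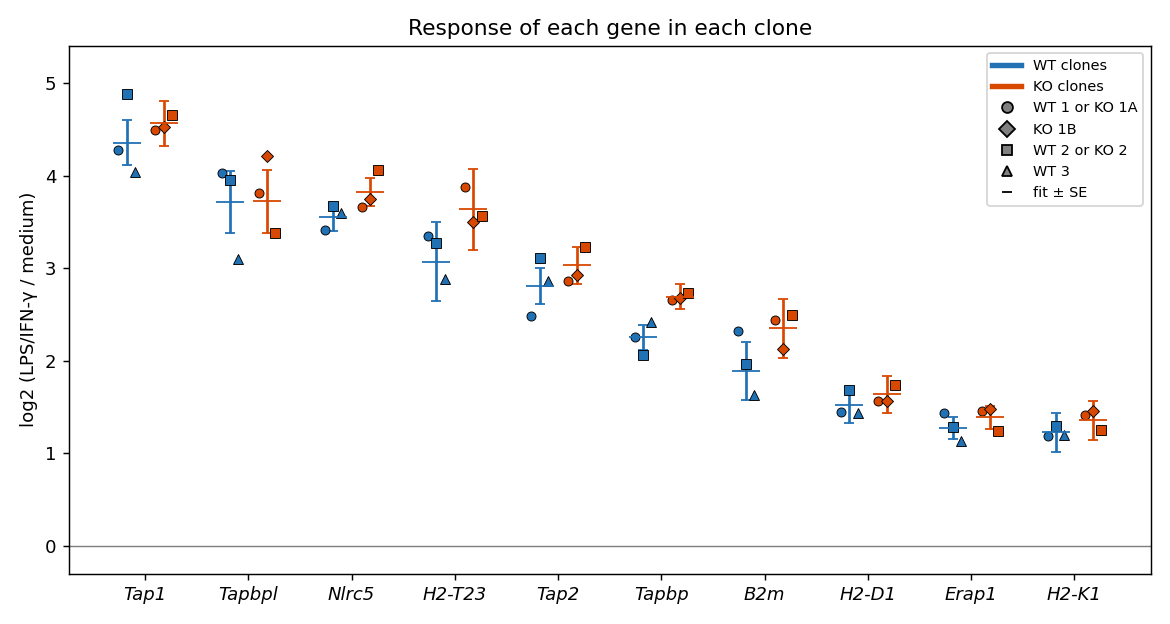
Log2 fold change after LPS/IFN-gamma for the 10 genes in WT and KO clones, with the fitted value and its standard error and the ratio of each single clone. The values run from 1.23 (H2-K1) to 4.36 (Tap1) in WT and from 1.36 to 4.56 in KO clones, and each gene's ratio lies above 0 in all 6 clones.

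Set against each other per kilobase of exon, B2m was the most abundant of the set in WT medium libraries (468 ± 243 RPKM, SD, n = 3), followed by H2-D1 (150 ± 17.6), H2-K1 (64.2 ± 9.46), Tapbp (31.6 ± 2.22) and Erap1 (22.2 ± 3.54). Each of these 5 was above the next in every library, and the places of the heavy chains are as uncertain as their levels. H2-T23 (8.43), Tap2 (7.47), Tap1 (6.67) and Nlrc5 (5.74) came next with overlapping ranges, and Tapbpl (2.11) was last. After stimulation the WT order was B2m (1736), H2-D1 (432), then Tapbp (151), H2-K1 (150) and Tap1 (137) with overlapping ranges. H2-T23 (71.1) and Nlrc5 (67.7) overlapped, as did Erap1 (53.8) and Tap2 (52.2), and Tapbpl (27.7) was again last. In KO clones the first 5 of the medium order were the same genes, from B2m (347) to Erap1 (20.8), and Tapbpl was last in both conditions (1.35 and 17.7). Tap1 moved from rank 8 to rank 5 in WT clones. Across the 10 genes, a lower RPKM in medium went with a larger log2 rise (Spearman's rho = -0.81 in WT and -0.77 in KO clones), a description over 10 points that share their libraries and in which the medium level enters both axes.

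Between KO and WT clones, the 10 values in medium were all below 0, from -0.09 (Erap1) to -0.69 (H2-T23), as were those of 51.6% of all genes. Without WT clone 3, 8 of the 10 were below 0 (49.6% of all genes), with B2m at 0.08 and Erap1 at 0.01. Of those below 0, Tap1 then stood at -0.007, from -0.32 with all clones, and H2-T23 at -0.02. With all clones, Tapbp was the only gene of the set with an unadjusted p below 0.05 in medium, by edgeR. DESeq2 called none and likewise had 1 such gene. Under stimulation 5 values were below and 5 above 0, from -0.65 (Tapbpl) to 0.13 (Tapbp). Tapbpl alone had an unadjusted p below 0.05 there by edgeR. The intervals show how large a difference these clones could hide. Under stimulation they ran from -0.25 to 0.29 for Erap1 and from -0.20 to 0.40 for Nlrc5, but from -0.64 to 0.70 for B2m and from -0.98 to 0.74 for H2-T23. In medium the interval was -0.36 to 0.17 for Erap1, -0.48 to 0.13 for Nlrc5 and -0.80 to 0.15 for Tap1.

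Subtracting the WT from the KO response gave a value above 0 for all 10 genes (47.9% of all genes), from 0.01 (Tapbpl) to 0.57 (H2-T23). Without WT clone 3, 8 of the 10 were above 0 (47.7% of all genes), with Tapbpl at -0.26 and Tap1 at -0.02, and H2-T23 stood at 0.33 and B2m at 0.21. edgeR called none of the 10 and 0.0% of all genes. This comparison uses the same libraries as the ones above, in a fit that does not pair the libraries of a clone. Its unadjusted p was below 0.05 for Tapbp alone (0.44 ± 0.18, adjusted p = 0.953). Over the alternatives, which include the clone as a block, the Tapbp value ran from 0.367 to 0.532 and was not called. The log2 ratio of Tapbp was 2.26, 2.07 and 2.41 in WT clones 1, 2 and 3 and 2.66, 2.68 and 2.73 in KO clones 1A, 1B and 2. That of H2-T23 was 3.34, 3.27 and 2.88 in WT and 3.87, 3.49 and 3.56 in KO clones. For these 2 genes the 3 KO ratios lay above the 3 WT ratios, as for 8.06% of all genes, and for the other 8 they overlapped. Over all genes edgeR called 0 differences of response, with 611 at an unadjusted p below 0.05. DESeq2 called 22, and with the clone as a block edgeR called 40, none of them among the 10.

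**Figure D4:**
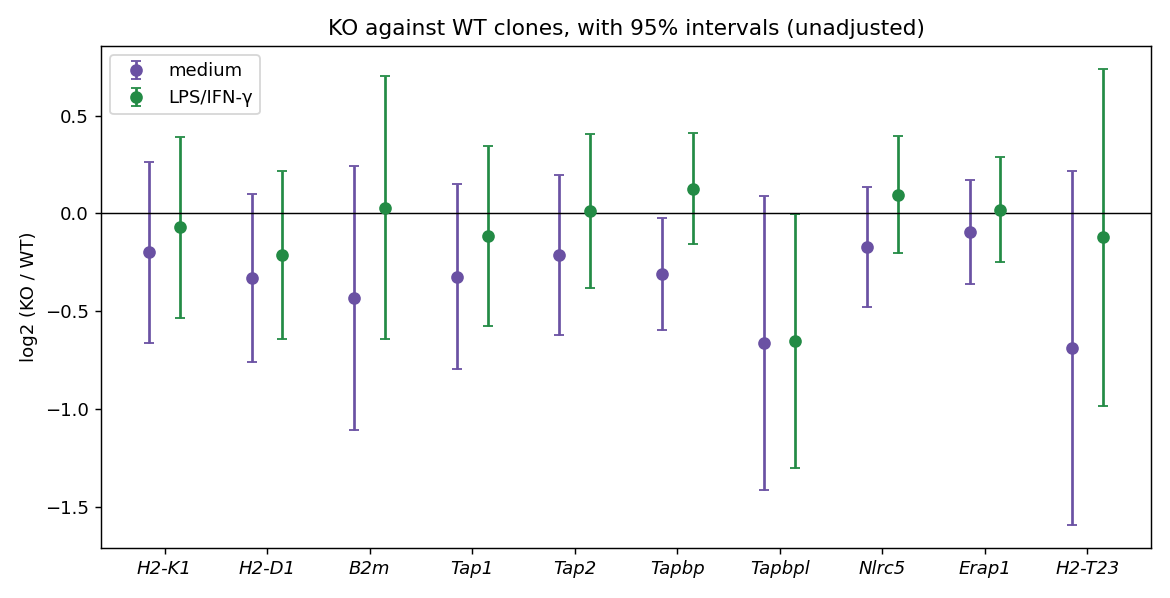
Log2 fold change of KO against WT clones in medium and under LPS/IFN-gamma for the 10 genes, with 95% intervals; 0 means no difference. No gene was called in either condition, and the widest intervals belong to H2-T23, Tapbpl and B2m.

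WT clone 3 also stood apart in medium at the heavy chain gene H2-T24, which was chosen after its values were seen. H2-T24 stood at 6.81, 1.10 and 79.4 CPM in WT medium libraries and at 134, 38.6 and 322 CPM after stimulation. In KO clones H2-T24 went from 5.85, 5.21 and 4.11 to 123, 128 and 77.7 CPM. Its rise was called in KO clones (4.43, adjusted p = 0.0134) and not in WT clones (2.49, adjusted p = 0.0927), where it was called without WT clone 3 (4.43, adjusted p = 0.00314) and with the clone as a block (adjusted p = 0.00202).

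Other genes of the pathway were taken in 7 lists. Over all genes, 23.6% were called lower in the WT and 27.6% in the KO response. Of 22 other class I heavy chain symbols sought, 13 were listed. Of these 13, 11 rose and none fell in WT clones (median 1.27) and 9 rose in KO clones (median 1.27). With library totals alone 9 and 7 rose, and with the clone as a block 12 and 9. GENCODE types H2-K2 among them as a pseudogene and H2-Q5 and H2-T10 as polymorphic pseudogenes, and each was called higher in WT clones. Reads shared between near copies may enter the values of all these heavy chains, which was not tested. H2-Q4, H2-Q10 and H2-Q2, Qa-region heavy chains, had the smallest p in WT clones. They rose by 1.49 ± 0.17, 1.21 ± 0.17 and 1.27 ± 0.20, about as far as H2-K1. The 3 other partners of B2m that were listed did not follow. Hfe, a regulator of iron uptake, fell from 17.7, 23.2 and 17.7 to 7.67, 5.78 and 3.99 CPM in WT clones (-1.74 ± 0.29, adjusted p = 0.000663). It fell from 15.2, 13.5 and 21.8 to 1.74, 1.96 and 3.28 CPM in KO clones (-2.85 ± 0.32, adjusted p = 3.4e-05). Under stimulation every KO library of Hfe lay below every WT library (12.7% of all genes did so), and Hfe was called lower (-1.32 ± 0.32, adjusted p = 0.0416). That call was lost with KO 1A and 1B summed (adjusted p = 0.224) and without WT clone 1 (0.125), WT clone 2 (0.076), KO 1A (0.274) or KO 1B (0.21). Mr1, which shows vitamin B metabolites to MAIT cells, fell in both genotypes (-2.05 ± 0.68, adjusted p = 0.0289, in WT and -2.81 in KO clones) from 155 to 28 counts summed over the WT group. The WT call of Mr1 was lost without WT clone 1 (0.0799), 2 (0.052) or 3 (0.0751) or without KO 1A (0.0533). Fcgrt, the neonatal Fc receptor for IgG, had a value of -0.68 ± 0.57 in WT and -1.16 in KO clones and was not called in either. With the clone as a block Fcgrt was called lower in both (-0.67 ± 0.23, adjusted p = 0.0308, in WT and -1.12 ± 0.25, adjusted p = 0.00291, in KO clones).

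Upstream of TAP, 7 of 8 genes for catalytic proteasome subunits, constitutive or inducible, and for the proteasome activator rose in WT clones (median 1.91) and 8 of 8 in KO clones (median 2.11). The remaining one, Psmb5, had a value of 0.41 in WT clones (adjusted p = 0.0516) and was called with the clone as a block. The median covers unlike rises. The other constitutive subunits, Psmb6 and Psmb7, rose by 0.78 ± 0.11 and 0.78 ± 0.15 in WT clones. The inducible Psmb8 and Psmb9 rose by 1.855 ± 0.188 and 3.11 ± 0.28. Psmb10, Psme2 and Psme1 rose by 2.56 ± 0.19, 2.44 ± 0.18 and 1.97 ± 0.18 in WT clones. Of 6 other peptidases, 4 rose in WT and 5 in KO clones, and none fell, but with library totals alone 2 rose and 1 fell in WT and 3 rose and 1 fell in KO clones. With KO 1A and 1B summed 3 rose in KO clones. With the clone as a block Thop1, a cytosolic peptidase, was called lower in WT (-0.28 ± 0.10, adjusted p = 0.0405) and KO clones (-0.35 ± 0.10, adjusted p = 0.0149). Lap3, a leucine aminopeptidase, rose by 2.11 ± 0.16, and Lnpep, the trimming enzyme of endosomes, by 1.47 ± 0.20 in WT clones. Tpp2, a large cytosolic peptidase, rose by 0.46 ± 0.09 and stood at 0.10 with library totals alone.

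Chaperones of the loading step moved less than tapasin. Of 6 genes, 2 rose and 1 fell in WT clones (median 0.24) and 4 rose in KO clones (median 0.56). With library totals alone the counts were 1 higher and 1 lower in WT and 3 higher and 1 lower in KO clones. With the clone as a block 4 were called higher in WT clones, the added ones being Pdia3 and Bcap31, and with KO 1A and 1B summed 3 in KO clones. Hspa5, the chaperone BiP, rose from 1652 ± 106 to 3421 ± 550 CPM in WT (1.05 ± 0.16) and from 1505 ± 264 to 5062 ± 480 CPM (SD, n = 3) in KO clones (1.75 ± 0.16). Its stimulated KO libraries all lay above its stimulated WT libraries, as for 11.3% of all genes. By edgeR neither that difference (0.565 ± 0.158, adjusted p = 0.0691) nor the difference of responses (0.70 ± 0.22, adjusted p = 0.762) was called. Calr, which encodes calreticulin, was called higher in WT clones (0.37 ± 0.12, adjusted p = 0.0245), with a value of 0.01 under library totals and no call when any 1 of the WT clones was left out (adjusted p from 0.0684 to 0.094). Uggt1, which encodes the glucosyltransferase that marks unfinished class I molecules, was called lower in WT clones (-0.31 ± 0.11, adjusted p = 0.0341). The call of Uggt1 was lost with KO 1A and 1B summed (adjusted p = 0.0704) and without any 1 clone other than WT 1 (0.0544 to 0.12).

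Of 14 other regulators of class I transcription, 6 rose and 2 fell in WT clones (median 0.16), and 5 rose and 3 fell in KO clones (median 0.17). With library totals alone, 6 rose and 6 fell in WT and 4 rose and 6 fell in KO clones. With the clone as a block, 6 rose and 3 fell in each genotype. No regulator was called lower in KO clones without KO 1A, without KO 1B or with the pair summed. Irf1, the interferon regulatory factor that binds the interferon response element, rose from 20.3 ± 2.50 to 1002 ± 190 CPM (SD, n = 3) in WT clones (5.62 ± 0.22) and by 5.47 ± 0.22 in KO clones. Nfkb1, which encodes an NF-kB subunit, rose by 2.22 ± 0.11 in WT clones. None of the 14 was called between the genotypes.

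Among 6 genes of class I turnover, 3 rose in WT clones (median 0.29) and 4 in KO clones (median 0.76), with none lower. With library totals alone 2 were higher and 1 lower in WT clones. With the clone as a block 5 rose in KO clones, March1 being the added one. Syvn1, a ubiquitin ligase of the endoplasmic reticulum, stood at 18.3, 19.5 and 21.9 CPM in stimulated WT and 30.3, 39.0 and 37.8 CPM in stimulated KO libraries. KO libraries were all higher, as for 11.3% of all genes, and the difference was called (0.84 ± 0.17, adjusted p = 0.0223). The call was lost with KO 1A and 1B summed (adjusted p = 0.108) and without any 1 of WT 1 (0.0542), WT 2 (0.0504), KO 1A (0.0983), KO 1B (0.155) or KO 2 (0.079). Derl2, which takes part in export from the endoplasmic reticulum, rose by 0.40 ± 0.12 in WT clones and stood at 0.04 with library totals alone. Leaving out WT clone 2 (adjusted p = 0.0881) or 3 (0.0985) ended the call. March1, a membrane ubiquitin ligase better known for removing class II molecules and Cd86, was called higher in WT clones (7.0 ± 1.57, adjusted p = 0.00452). Its stimulated libraries differed widely, at 0.456, 60.3 and 35.5 CPM in WT clones 1, 2 and 3, and WT clone 1 stayed below the highest medium library.

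**Figure D5:**
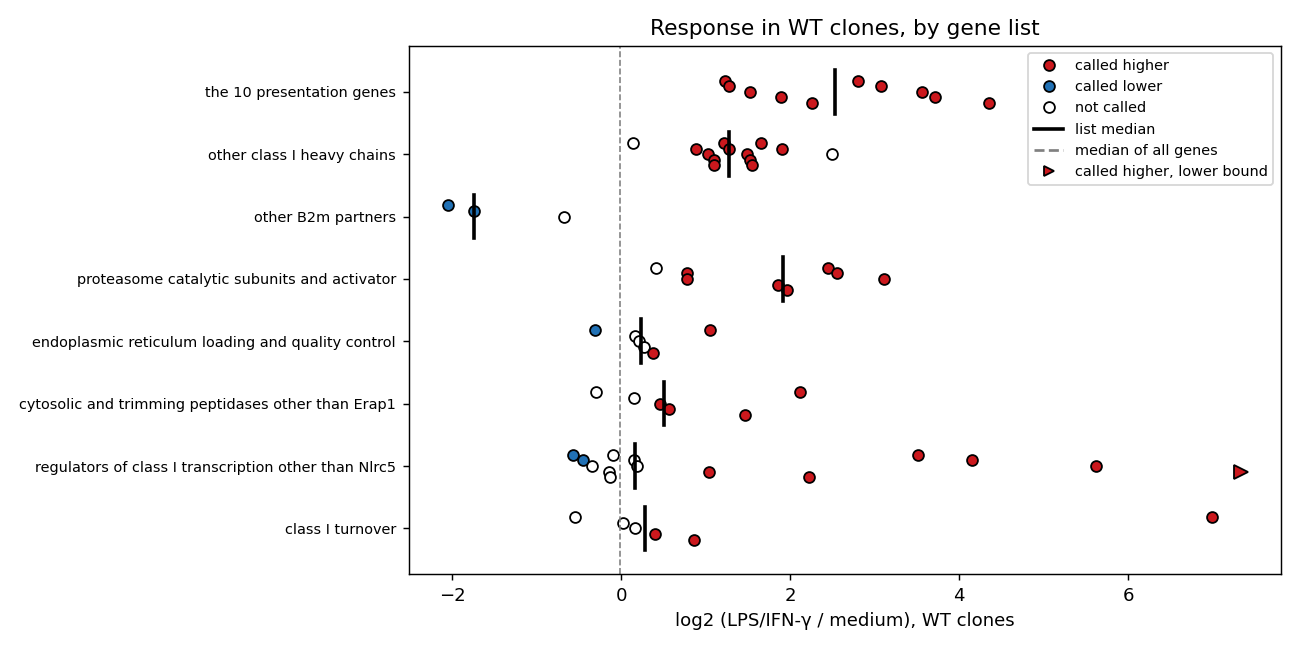
Log2 fold change in WT clones for the 10 genes and for the genes of the 7 pathway lists, 1 point per gene, with called genes in red (higher) or blue (lower), others in white, list medians as black bars and the median of all genes as a dashed line; the right-pointing triangle is Ciita at its lower bound. The 10 genes, the other heavy chains and the proteasome genes lie above 0, and the partners of B2m other than the heavy chains lie below it.

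The genes whose profile over the 12 libraries was most like the mean of the 10 were named by the root mean square difference of centred log2 CPM. They were Atrip (0.10), 9330175E14Rik (0.13), Psme2 (0.16), Nmi (0.18) and Ogfr (0.19), against a median of 1.42 over the other genes tested. The 10 themselves lay between 0.17 (Tapbp) and 0.89 (Tap1) from their own mean. Psme2 encodes a subunit of the proteasome activator and Nmi an interferon-induced protein. Atrip, a DNA damage checkpoint gene, shares 16.0% of its exon length with Trex1 on the same strand. The long noncoding RNA 9330175E14Rik runs opposite to Nlrc5 and shares 78 bp of exon with it, so reads of the pair cannot be told apart there without strand.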

How the data were processed

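The authors deposited 1 table of raw counts per Ensembl gene for the 12 libraries. Its genes each had at least 5 counts in their second-highest library. Per the submitters' processing notes the build was mm10 (GRCm38) and DESeq2 was used, in a role that is not stated. Nothing in the sources used here names the aligner, the counting tool or the strand setting. GENCODE M21 named 12305 of the 12483 IDs and gave positions and exon overlaps.

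Counts were tested with edgeR 4.0.16 (R 4.3.3): filterByExpr left out 252 genes, libraries were scaled by TMM, and a robust quasi-likelihood model of 4 group means over 12 libraries had 8 residual degrees of freedom and a common coefficient of variation of 23.6%. P-values were adjusted over all 12231 genes and called below 0.05, and intervals are 95% intervals. CPM and RPKM (CPM per kilobase of merged exons) were computed from the counts. The labels give each clone 1 library per condition, and deviations from the group means correlated between a clone's libraries at 0.287 to 0.70. The fit with clone as a block is therefore given where it changes the call of a named gene or the count of a list. It had 4 residual degrees of freedom and a common coefficient of variation of 11.7%.

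Alternatives were RLE factors, library totals alone, no filter on low counts, DESeq2 1.42.0, the clone block, KO 1A and 1B summed, and each clone left out in turn. Named genes were the 10 genes of the set, and per pathway list the 3 with the smallest p in WT clones plus any called between genotypes or in the difference of responses. A gene that this rule names is not reported here. The other catalytic proteasome subunits were added, as were the 5 genes of most similar profile, the latter from log2 CPM with a prior count of 2. The genes and lists were chosen with earlier results of these data known. Scripts were tested on simulated data.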

Additional observations from a re-analysis of the deposited data

How the results depend on the processing

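Under all alternatives run, the 10 genes were called higher in both responses (10 of 10 each) and 0 were called in the 3 comparisons that involve genotype. With the clone as a replicate block these counts were 10, 10 and, for the difference of responses, 0. Over all genes, the number called between KO and WT clones in medium (148) was 621 by DESeq2, 16 with KO 1A and 1B summed, and 14 (without KO 1A) to 419 (without WT clone 3) when 1 clone was left out. Under LPS/IFN-gamma (567) it was 1153 by DESeq2, 73 with KO 1A and 1B summed, and 48 (without KO 1A) to 972 (without WT clone 3). For the difference of responses (0) it was 22 by DESeq2, 40 with the replicate block, and 0 to 4 with 1 clone left out, and it moved to 1 without WT clone 2 and 4 without WT clone 3. The cause was not tested.

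Of the alternative values of single genes of the set, 561 kept their direction and call and 19 changed sign, and none of these was called. With 1 clone left out, KO against WT in medium ran from -0.667 to 0.08 for B2m and from -0.214 to 0.008 for Erap1, the highest without WT clone 3. Under stimulation it ran from -0.249 to 0.038 for H2-K1, -0.096 to 0.292 for B2m, -0.235 to 0.127 for Tap2, -0.037 to 0.068 for Erap1, -0.002 to 0.219 for Nlrc5 and -0.328 to 0.308 for H2-T23, and H2-K1 was 0.016 with KO 1A and 1B summed. The difference of responses ran from -0.023 to 0.444 for Tap1 and -0.26 to 0.29 for Tapbpl, which was -0.015 with library totals alone and -0.051 with KO 1A and 1B summed. Library totals alone moved the median of all genes to -0.37 in WT and -0.39 in KO responses. Tapbpl had the fewest counts of the set, 34, 29 and 61 in the KO medium libraries.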

Other observations

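Ciita, the class II transactivator and a relative of Nlrc5, did not share the even response of Nlrc5 across clones. It was chosen here after its values were seen. It had 0 counts in all 3 WT medium libraries and 15, 335 and 6 counts in stimulated WT clones 1, 2 and 3, at least 161-fold higher with the medium group set to a floor of 3 counts in all. KO clones 1A, 1B and 2 held 1, 0 and 0 counts in medium and 7, 6 and 21 counts after stimulation. The stimulated level was 1.37, 34.0 and 0.57 CPM in WT and 0.72, 0.59 and 2.30 CPM in KO clones, so WT clone 2 held most of the WT signal. Between genotypes under stimulation Ciita was not called (-3.32, adjusted p = 0.227), and without WT clone 2 the value was 0.29. Its rise in KO clones was not called by edgeR (adjusted p = 0.11), but was with the clone as a block (0.000794), without WT clone 2 (0.00329) and by DESeq2 (0.0182). Floors cover counting error only.

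March1 was also uneven. Its counts in WT clones 1, 2 and 3 went from 1, 9 and 0 to 5, 595 and 374, and in KO clones 1A, 1B and 2 from 0, 1 and 0 to 23, 29 and 3. The KO rise was not called by edgeR (adjusted p = 0.0584), but was with the clone as a block (0.000749), without WT clone 1 (0.00816) and by DESeq2 (0.00687).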
